A study of Homo sapiens with 24 samples.

Results

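The genes described here are 47 genes of mitosis, taken from the count table by a fixed list of gene symbols: mitotic cyclins and kinases, and genes of the spindle, kinetochore, condensin and cytokinesis. All 47 were among the 59251 genes of the table and among the 20820 genes with enough counts to be tested. RNA was sequenced from MCF10A, an established, non-tumorigenic line of human breast epithelial cells. The study used PE, described as non-transformed, and PM, described as transformed by MYC. The sources used here do not spell out the letters. It asked what loss of CHD1, a chromatin remodeller, does to gene expression in each line. PE and PM each carried a hairpin RNA against GFP as the control, or hairpin A or hairpin B against CHD1. This gave 6 groups of 4 libraries, and every group, controls included, received doxycycline at 50 ng/ml for 72 h before 200000 cells were taken for RNA. The sources used here give no hairpin sequences. The replicates are called biological, with no word on how the cultures were kept apart, so each p-value covers only the spread seen among these libraries. Libraries with the GFP hairpin are called controls below.

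Mitosis begins when cyclin A and cyclin B activate the kinase CDK1. Chromosomes then condense and attach through their kinetochores to a bipolar spindle, and the spindle assembly checkpoint holds back separase and the loss of cyclin B until attachment is complete. Most genes of this machinery are transcribed in G2 and mitosis, by FOXM1 and by B-MYB with the MuvB complex, and they are repressed in resting cells by the DREAM complex. Their RNA is therefore widely used as a sign of cycling cells.

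Total counts of the libraries lay between 4.14 and 93.3 M, with 49.5 M as the median, and PE control replicate 1 was the smallest. Levels are given as CPM, counts scaled to the size of the library after TMM normalisation. CHD1 itself fell with both hairpins, from 78.8 ± 5.53 (SD, n = 4) to 29.2 ± 1.20 and 28.1 ± 3.07 CPM in PE, and from 90.0 ± 5.18 to 31 ± 2.76 and 29.5 ± 5.40 CPM in PM, with no overlap between groups (two-sided exact permutation p = 0.0286 each, the smallest that 4 against 4 allows). PE control replicate 1, replicate 4 of hairpin A in PM and replicate 3 of hairpin B in PM stood apart in depth or in the number of genes detected, and the main counts are also given without these 3 libraries. All 10 markers of breast epithelium were detected, with a summed level of 3663 to 5117 CPM in PE and 3012 to 3351 CPM in PM with the GFP hairpin.

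Promoter sequences are shown first because a shared promoter element is the best known feature of these genes. It is the cell cycle homology region, whose usual form reads TTTGAA or TTCGAA, often with CCAAT boxes, the site of NF-Y, upstream of it. RefSeq promoters (GRCh38.p14, 250 bases before to 50 after the start) were matched for 40 of the 47 genes. TTTGAA or TTCGAA on either strand was present in 29 of 40 (72.5%), against 16.4% of 35116 promoters in the table. CCAAT on either strand was also present in 29 of 40 (72.5%), against 34.6% of all promoters. Both were present in 22 of 40 (55%), against 6.38% of all promoters. On the other strand TTTGAA reads TTCAAA and CCAAT reads ATTGG, while TTCGAA reads the same on both. Neither motif contains the other, though the last T of CCAAT can be the first of TTTGAA. Among promoters of other mitosis genes, 43 of 82 (52.4%) held TTTGAA or TTCGAA, and 51 (62.2%) held CCAAT. Among those of DNA replication genes the counts were 2 of 39 (5.13%) and 23 of 39 (59.0%).

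The 120 bases before the start are given for 8 genes on which the results below turn, each upstream of the first exon. In the mean of both CHD1 hairpins, ESPL1, CCNA2 and ASPM fell in both lines, while CCNB2, CDC20 and KIF20A rose in PE. ANLN fell in PM, and NUF2 rose in both lines. Capitals mark TTTGAA or TTCGAA and also CCAAT, with their reverse complements.
ESPL1, chr12:53268179-53268298, plus strand: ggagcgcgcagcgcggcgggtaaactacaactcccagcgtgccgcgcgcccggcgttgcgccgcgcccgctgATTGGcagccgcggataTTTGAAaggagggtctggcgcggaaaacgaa
CCNA2, chr4:121823884-121824003, minus strand: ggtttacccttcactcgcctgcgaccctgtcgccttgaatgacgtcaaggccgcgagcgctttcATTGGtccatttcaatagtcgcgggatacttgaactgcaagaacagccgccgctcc
ASPM, chr1:197146670-197146789, minus strand: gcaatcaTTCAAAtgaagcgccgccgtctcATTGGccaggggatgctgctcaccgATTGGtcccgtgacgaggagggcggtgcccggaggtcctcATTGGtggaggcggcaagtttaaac
CCNB2, chr15:59105026-59105145, plus strand: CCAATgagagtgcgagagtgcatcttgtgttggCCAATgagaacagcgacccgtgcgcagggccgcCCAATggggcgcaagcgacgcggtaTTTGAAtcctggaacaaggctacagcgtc
CDC20, chr1:43358861-43358980, plus strand: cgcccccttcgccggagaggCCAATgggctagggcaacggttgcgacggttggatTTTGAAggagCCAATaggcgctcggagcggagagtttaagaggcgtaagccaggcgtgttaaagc
KIF20A, chr5:138178992-138179111, plus strand: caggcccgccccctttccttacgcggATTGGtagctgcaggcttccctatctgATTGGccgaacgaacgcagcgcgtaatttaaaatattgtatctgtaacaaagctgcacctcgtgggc
ANLN, chr7:36389742-36389861, plus strand: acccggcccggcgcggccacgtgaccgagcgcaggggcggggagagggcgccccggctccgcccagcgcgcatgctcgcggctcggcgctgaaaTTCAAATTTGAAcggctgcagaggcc
NUF2, chr1:163321834-163321953, plus strand: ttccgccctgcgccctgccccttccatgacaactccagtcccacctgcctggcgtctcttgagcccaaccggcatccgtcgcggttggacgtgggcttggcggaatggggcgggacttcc
CCNB2 carried 3 CCAAT copies and 1 TTTGAA in the stretch shown. ESPL1 carried 1 of each, with TTTGAA starting 31 bases before the start. CCNA2 and KIF20A held CCAAT but neither TTTGAA nor TTCGAA in the 300 bases searched. NUF2 held no marked motif in its stretch, and its only TTTGAA began at base 17 after the start.

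Levels per kilobase of exon were compared first, in the libraries with the GFP hairpin. CDC20, the activator of the anaphase-promoting complex, was the highest of the 47 at 90.6 ± 18.1 CPM per kilobase in PE and 119 ± 4.15 in PM (SD, n = 4). CCNB1, cyclin B1, followed at 89.7 ± 7.93 in PE and 98.0 ± 5.79 in PM, so in PE these neighbours did not differ beyond their spread. TPX2, PTTG1 and UBE2C held places 3 to 5 in PE, at 73.0 ± 4.01, 72.9 ± 4.29 and 60.8 ± 5.67. The lowest were CDCA3 at 6.40 ± 1.54, ESPL1 at 7.41 ± 0.846, CDC25C at 7.78 ± 1.60 and PLK4 at 7.88 ± 0.741 in PE, and these also overlapped. The kinetochore gene NUF2 stood next, at 8.09 ± 1.09. These places depend on the exon length used, which joins all annotated exons whether or not the cells use them. Before division CDCA3 was at 25.4 to 44.3 CPM in the PE controls and NUF2 at 21.8 to 29.9. Their exon lengths were 5653 and 3362 bases.

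With CHD1 knocked down in PE, 26 of the 47 genes fell and 6 rose in the mean of hairpins A and B against the GFP hairpin (edgeR quasi-likelihood test, Benjamini-Hochberg adjusted p under 0.05). Over all genes tested, 12.7% fell and 13.1% rose. The median log2 change was −0.22 for the 47 genes and −0.0031 for all genes. The largest falls were in ESPL1, CCNA2, SPC25, TPX2 and CDCA5, and the largest rise was in NUF2. In PM, 34 of the 47 genes fell and 1 rose, against 15.1% and 13.3% of all genes, with medians of −0.36 and −0.0062. The largest falls in PM were in ESPL1, CCNA2, ASPM, TPX2, TTK and SPC24, and NUF2 was again the gene that rose. In bulk RNA, fewer cells in mitosis and less of each RNA per cell cannot be told apart.

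In the mean of both hairpins, the same 26 genes that fell in PE also fell in PM. There 8 more fell: CDC25C, INCENP, NCAPD2, NCAPG, KIF11, DLGAP5, PRC1 and ANLN. With hairpin A alone in PM, 5 of 5 spindle genes and 5 of 5 cytokinesis genes fell. With hairpin B alone, 2 spindle and 3 cytokinesis genes fell, so not every fall in the mean passed with hairpin B. The lines have separate control libraries. The other 5 genes that rose in PE, TOP2A, KIF20A, AURKA, CDC20 and CCNB2, were not called in PM. Of these 5, the difference between the lines passed the test for KIF20A alone. TOP2A and KIF20A did not pass with hairpin A alone in PE. In that mean, CDCA3, CDCA8, BUB3, MAD2L1, PTTG1, NDC80 and KIF4A were called in neither line. Leaving out the 3 libraries named above gave 28 falls and 5 rises in PE, and 34 falls and 2 rises in PM. DESeq2 gave 34 falls and 3 rises in PM, and without PM control replicate 1 there were 33 falls and 3 rises.

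**Figure D1:**
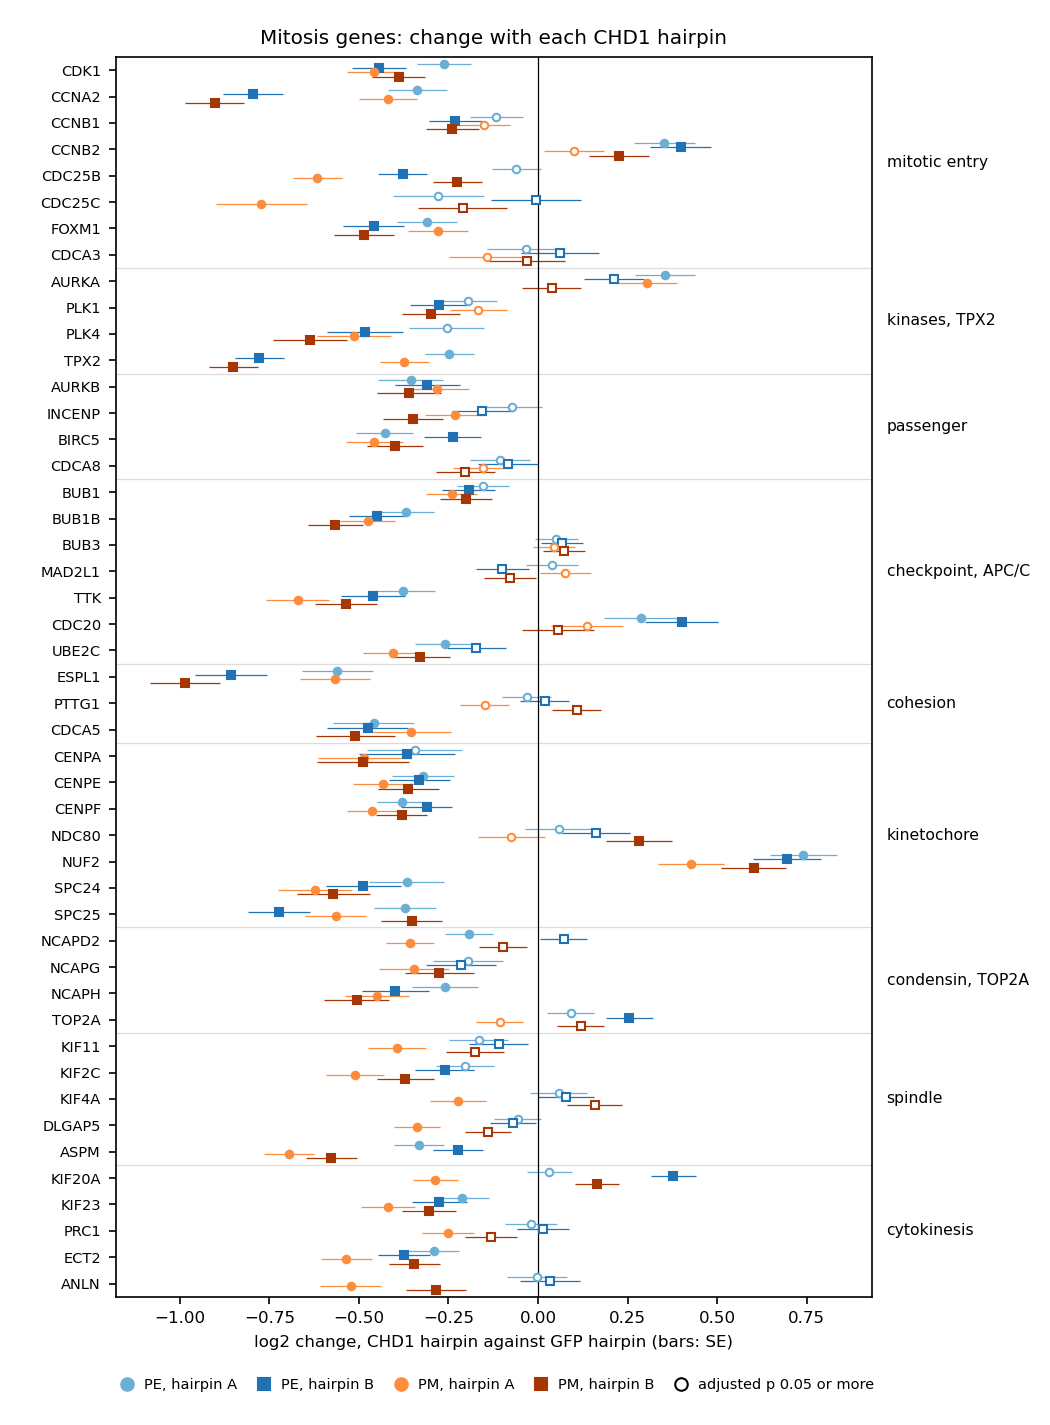
Log2 change of each of the 47 mitosis genes with hairpin A or B against the GFP hairpin in PE (blue) and PM (orange and brown), grouped by role. Bars are SE and open symbols did not pass the edgeR test. Most filled symbols lie left of 0, with ESPL1, CCNA2 and TPX2 among the farthest left and NUF2 right of 0 in all 4 comparisons.

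Single hairpins were compared with the same GFP libraries, so hairpins A and B are not independent within a line. In PE, hairpin A gave 20 falls and 4 rises, against 9.33% and 10.9% of all genes, and hairpin B gave 25 falls and 5 rises, against 13.2% and 13.6%. In PM, hairpin A gave 34 falls and 2 rises, against 14.3% and 13.4%, and hairpin B gave 29 falls and 4 rises, against 14.4% and 13.6%. Without the 3 libraries that stood apart, hairpins A and B gave 27 falls with 3 rises and 26 with 5 in PE, and 34 with 3 and 28 with 4 in PM. The median log2 change of the 47 genes in PE was −0.20 with A and −0.22 with B. In PM the medians were −0.36 and −0.30. The 4 rises with hairpin B in PM were NUF2, NDC80, CCNB2 and KIF20A, and 1 was left without replicate 1 or replicate 2 of that hairpin, and 2 without replicate 2 of the GFP hairpin. With hairpin A in PE, scaling by library sizes alone moved the share of rises among all called genes from 53.8% to 39.2%, and the 47 genes then gave 27 falls and 3 rises.

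The libraries also show how far single genes separated. In PM, all 8 libraries with a CHD1 hairpin lay below all 4 with the GFP hairpin for 26 of the 47 genes, and above them for NUF2. Over all genes tested these shares were 7.44% and 6.01%. In PE, 9 genes lay below in this sense, namely CDK1, CCNA2, TPX2, BUB1B, ESPL1, CENPE, CENPF, SPC25 and NCAPH, against 5.19% of all genes. NUF2 and CCNB2 lay above, against 6.48% of all genes. The fit estimates 1 spread per gene over all 6 groups. It gave the 47 genes a median biological coefficient of variation of 8.58%, with a range of 6.69% to 12.9%. Single groups could spread more widely. In the PE controls CDC20 was at 90.6 ± 18.1 and CDCA3 at 6.40 ± 1.54 CPM per kilobase (SD, n = 4).

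The median deviation of the 47 genes from their overall mean was computed for each library as a description. In the PM controls it was 0.16 ± 0.03 (SD, n = 4) on the log2 scale. Hairpin A gave −0.15 ± 0.06 and hairpin B gave −0.09 ± 0.06, and no control overlapped them. In PE it was 0.14 ± 0.16, 0.02 ± 0.06 and −0.04 ± 0.13, and these groups overlapped. PE control replicate 1, the library with the fewest counts, stood at −0.07, with 44 of the 47 genes below their group mean. Replicates 3 and 4 of that group stood at 0.28 and 0.25. Replicate 3 of hairpin B in PE was at −0.21 with all 47 genes below the group mean, while replicate 2 had 46 above it. Genes of this set thus moved up and down together between replicates of PE. With hairpin B in PM, 37 of the 47 genes lay below their group mean in replicate 3 and 37 above it in replicate 2. Replicate 3 was the lowest library of every CHD1 hairpin group. With A and B it stood at −0.06 and −0.21 in PE and at −0.23 and −0.17 in PM. Control replicate 3 stood at 0.28 in PE and 0.19 in PM. The number of falls in PE was 19 without replicate 3 of the GFP hairpin and 28 without replicate 1.

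**Figure D2:**
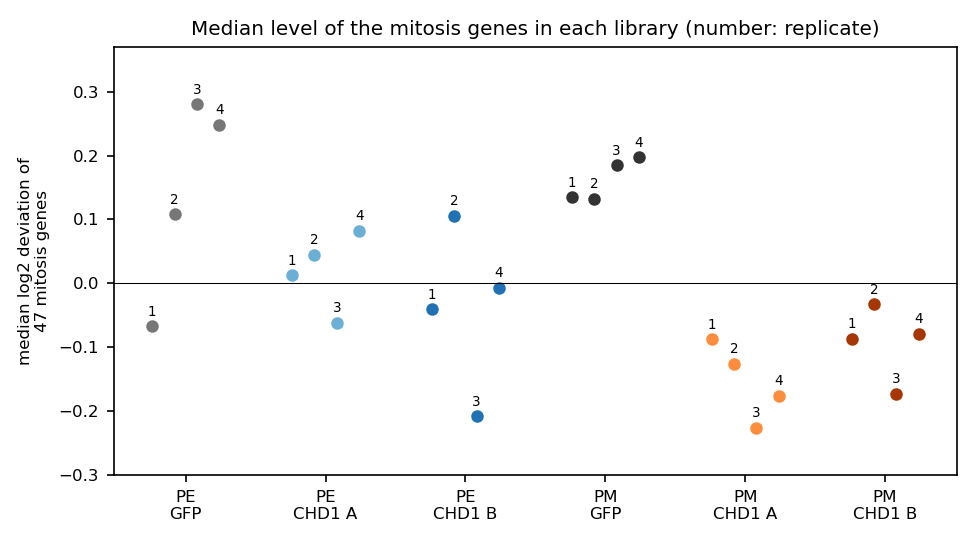
Median log2 deviation of the 47 mitosis genes in each library from the mean of the 6 group means, with the replicate number above each point. In PM the 4 GFP libraries (0.13 to 0.20) lie above all 8 libraries with a CHD1 hairpin, while in PE replicate 1 of the GFP hairpin (−0.07) lies among the CHD1 hairpin libraries.

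Epithelial marker genes moved in the same samples. Their summed level was 1981 to 3197 CPM in PE and 1941 to 2492 CPM in PM with a CHD1 hairpin, below the GFP libraries given above. In the mean of both hairpins 5 of the 10 markers fell and 2 rose in PE, against 12.7% and 13.1% of all genes. In PM 3 fell and 2 rose, against 15.1% and 13.3%. Much of the lower sum lay in 1 marker, LAMB3, so the sum does not show how the others moved. In PE the log2 changes of KRT17, KRT14, CDH1 and EPCAM were −3.71, −3.69, −3.51 and −1.25, all called lower. KRT8 and ITGA6 rose by 0.67 and 0.31. In PM, KRT17 and KRT14 changed by −2.35 and −2.16, and KRT18 and ITGA6 rose by 0.14 and 0.41. Mean LAMB3 was 2692 CPM in the PE controls, 856 with hairpin A and 716 with hairpin B. In PM these means were 1202, 229 and 335 CPM. The 5 fibroblast markers summed to 50.2 to 63.9 CPM in the PE controls, 30.5 to 43.7 with hairpin A and 25.2 to 43.5 with hairpin B. In PM they summed to 19.6 to 42.1, 14.1 to 19.2 and 36 to 66.5 CPM. Of these markers COL1A1, a collagen chain, rose by 0.52 in PE and by 1.03 in PM (edgeR adjusted p = 0.0168 and 5.35e-06). PDGFRB also rose and DCN fell in PE, and LUM fell in PM. Endothelial markers summed to 0.372 to 12.1 CPM over all groups, and none passed in the mean of both hairpins. With hairpin A alone in PM, PECAM1 rose by 0.99 (edgeR adjusted p = 0.0496). With the GFP hairpin PECAM1 was lower in PM than in PE, by −3.09 (edgeR adjusted p = 5.6e-07). Of 5 immune markers only CD68, a lysosomal protein of macrophages, could be tested. It was at −0.14 in PE and fell by 0.85 in PM (edgeR adjusted p = 0.458 and 2.6e-06), a difference between the lines of −0.71 (adjusted p = 0.0151). Their sum was 37.1 to 65.5 CPM over all PE libraries, 38.1 to 43.3 in the PM controls, 14.4 to 20.0 with hairpin A and 25.3 to 33 with hairpin B. The part of these levels in the mitosis results was not tested.

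Genes of mitotic entry. Of 8 genes, 5 fell and 1 rose in PE, and 6 fell in PM. CCNA2, cyclin A2, which acts in S phase and at the start of mitosis, was at 122, 130, 138 and 140 CPM in the GFP libraries of PE, replicates 1 to 4. It was at 107, 112, 94.7 and 108 CPM with hairpin A and at 74.1, 85.1, 65.1 and 82.5 CPM with hairpin B. All 8 knockdown libraries lay below the controls, and those with hairpin B lay lowest, without overlap with hairpin A.

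In PM, CCNA2 stood at 134, 145, 137 and 123 CPM with the GFP hairpin, at 106, 108, 101 and 88.1 with hairpin A and at 75.4, 77.6, 62.2 and 73.3 with hairpin B. The order of the groups was the one seen in PE, again without overlap. Exons of EXOSC9 on the opposite strand cover 9.08% of the CCNA2 exon bases. The log2 change was −0.57 (SE 0.07, edgeR adjusted p = 1.01e-07) in PE and −0.66 (SE 0.07, 2.81e-09) in PM.

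CDK1, the kinase that drives mitosis, fell by 0.35 in PE and by 0.42 in PM on the log2 scale. FOXM1, the transcription factor of G2 and M genes, fell by 0.38 in both. CCNB1 fell by 0.17 and by 0.20. Its relative CCNB2, cyclin B2, went the other way in PE, from 56.8 ± 7.88 to 73.7 ± 2.56 and 76.2 ± 7.19 CPM (log2 change 0.38, SE 0.08, edgeR adjusted p = 0.000213). In PM it went from 58.9 ± 5.55 to 63.1 ± 3.45 and 68.9 ± 6.08 CPM, a change of 0.16 that did not pass (adjusted p = 0.0951). CCNA2 and CCNB1 therefore fell while CCNB2 rose in the same PE libraries.

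The phosphatases CDC25B and CDC25C, which activate CDK1, gave different values by line and hairpin. CDC25B was at 233, 235, 233 and 241 CPM with the GFP hairpin in PE, at 219, 245, 229 and 212 with hairpin A and at 201, 182, 174 and 170 with hairpin B. In PM it was at 158, 136, 162 and 160, then at 101, 97.2, 95.6 and 108 with hairpin A and at 141, 122, 122 and 141 with hairpin B. In PE the hairpin A libraries overlapped the controls, and in PM they lay far below them.

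The CDC25B log2 change with hairpin A was −0.06 in PE and −0.62 in PM, and this difference of −0.56 passed the test (SE 0.10, edgeR adjusted p = 0.000285). CDC25C was low, at 18.5, 26.2, 30.7 and 28.5 CPM with the GFP hairpin in PE. It stood at 22.4, 20.1, 23.6 and 22.0 with hairpin A and 25.9, 29, 24.7 and 27 with hairpin B, within the range of the controls, and was not called. In PM it went from 22.4, 18.4, 24.5 and 23.3 to 11.6, 12.9, 10.9 and 16.8 with hairpin A, below every control. With hairpin B it was at 20.3, 21.1, 19.3 and 16.0, which overlapped the controls. CDCA3, a trigger of WEE1 degradation, was called in neither line.

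Mitotic kinases and TPX2. Of 4 genes, 3 fell in each line. TPX2, which activates Aurora A on spindle microtubules, was at 260, 244, 278 and 270 CPM with the GFP hairpin in PE, at 226, 223, 209 and 229 with hairpin A and at 164, 157, 128 and 165 with hairpin B. In PM it was at 253, 265, 257 and 263, at 199, 202, 193 and 208, and at 140, 145, 131 and 160. No group overlapped another within a line. The log2 change was −0.51 (SE 0.06, edgeR adjusted p = 1.91e-08) in PE and −0.61 (SE 0.06, 2.89e-10) in PM.

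AURKA, the kinase that TPX2 activates, rose in PE from 92.3 ± 13.0 to 119 ± 8.42 and 108 ± 11.1 CPM (log2 change 0.28, SE 0.07, edgeR adjusted p = 0.00347). With single hairpins in PE it passed with A (0.36) and not with B (0.21, adjusted p = 0.0587). In PM its mean change was 0.17 (adjusted p = 0.0728), and it rose with hairpin A (0.30). TPX2 thus fell in groups whose mean AURKA level was at or above that of the controls. PLK4, the kinase of centriole duplication, fell by 0.37 in PE and by 0.58 in PM, and PLK1 fell by 0.24 and by 0.23 on the log2 scale.

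The chromosomal passenger complex corrects faulty attachments and later guides cytokinesis. Of its 4 genes, 2 fell in PE and 3 in PM. AURKB, its kinase, fell by 0.33 in PE and by 0.32 in PM, and BIRC5, survivin, fell by 0.33 and by 0.43. INCENP, the scaffold, was at −0.11 in PE, where it did not pass, and fell by 0.29 in PM. CDCA8, borealin, was at −0.10 and −0.18 and passed in neither line (adjusted p = 0.389 and 0.0555).

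Checkpoint genes and the anaphase-promoting complex. Of 7 genes, 4 fell and 1 rose in PE, and 4 fell in PM. TTK, the kinase at the top of the checkpoint, was at 44.7, 58.9, 64.0 and 61.2 CPM with the GFP hairpin in PE, and at 44.6, 50.3, 38 and 46.1 with hairpin A. With hairpin B in PE it was at 42, 45.3, 38.4 and 43.5 CPM. Replicate 1 of the controls fell among the knockdown libraries, and the other 3 lay above them all.

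In PM, TTK was at 70.2, 66.4, 66.8 and 59.9 CPM with the GFP hairpin, at 44.4, 41.4, 38.8 and 40.8 with hairpin A and at 45.6, 47.4, 42 and 46.5 with hairpin B. The groups with CHD1 hairpins lay entirely below. The log2 change was −0.42 (SE 0.08, edgeR adjusted p = 5.89e-05) in PE and −0.60 (SE 0.07, 7.03e-08) in PM. BUB1B, which encodes BUBR1 of the checkpoint complex, fell by 0.41 in PE and by 0.52 in PM, and BUB1 fell by 0.17 and by 0.22.

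MAD2L1 and BUB3, the partners that bind CDC20 and BUB1 at the checkpoint, were not called. MAD2L1 was at −0.03 in PE and −0.00087 in PM, and BUB3 at 0.06 in both. UBE2C, the ubiquitin-conjugating enzyme of the anaphase-promoting complex, fell by 0.22 and by 0.37. CDC20 was at 133, 182, 207 and 215 CPM with the GFP hairpin in PE, at 236, 241, 214 and 218 with hairpin A and at 253, 287, 224 and 220 with hairpin B. Replicate 1 of the controls was the lowest, and replicate 4 of the controls reached into the hairpin A group.

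The log2 change of CDC20 in PE was 0.34 (SE 0.09, edgeR adjusted p = 0.0048). In PM it was at 238, 253, 243 and 233 CPM, at 278, 282, 274 and 228 with hairpin A and at 248, 260, 261 and 237 with hairpin B. These groups overlapped, and the change of 0.10 did not pass (adjusted p = 0.482).

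Sister chromatid cohesion. ESPL1, which encodes separase, the protease that cuts cohesin at anaphase, had the largest fall among the 47 genes in the mean of both hairpins in each line. In PE it was at 55, 66.8, 70.7 and 71.0 CPM with the GFP hairpin, at 43.5, 44.8, 42.3 and 50.0 with hairpin A and at 37.8, 41.9, 29 and 38.7 with hairpin B. In PM it was at 61.4, 59.7, 67.1 and 61.5, at 47.7, 42.6, 40.2 and 38.3, and at 37.4, 29.5, 29.3 and 29.8. All 16 knockdown libraries lay below the controls of their line, and in each line those with hairpin B lay below those with hairpin A.

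The ESPL1 log2 change was −0.71 (SE 0.08, edgeR adjusted p = 4.48e-08) in PE and −0.78 (SE 0.08, 3.81e-09) in PM, which is 38.8% and 41.6% lower. PTTG1, securin, which holds separase inactive, was at −0.0062 and −0.02 and was not called. CDCA5, sororin, which stabilises cohesin, was at 54.3, 67.6, 70.4 and 76.9 CPM with the GFP hairpin in PE, at 47.5, 55.3, 41.1 and 54.6 with hairpin A and at 48.0, 54.3, 37.1 and 57.2 with hairpin B. Replicate 1 of the controls overlapped the knockdown libraries. CDCA5 changed by −0.47 (SE 0.10, edgeR adjusted p = 0.000468) in PE and fell by 0.43 in PM.

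**Figure D3:**
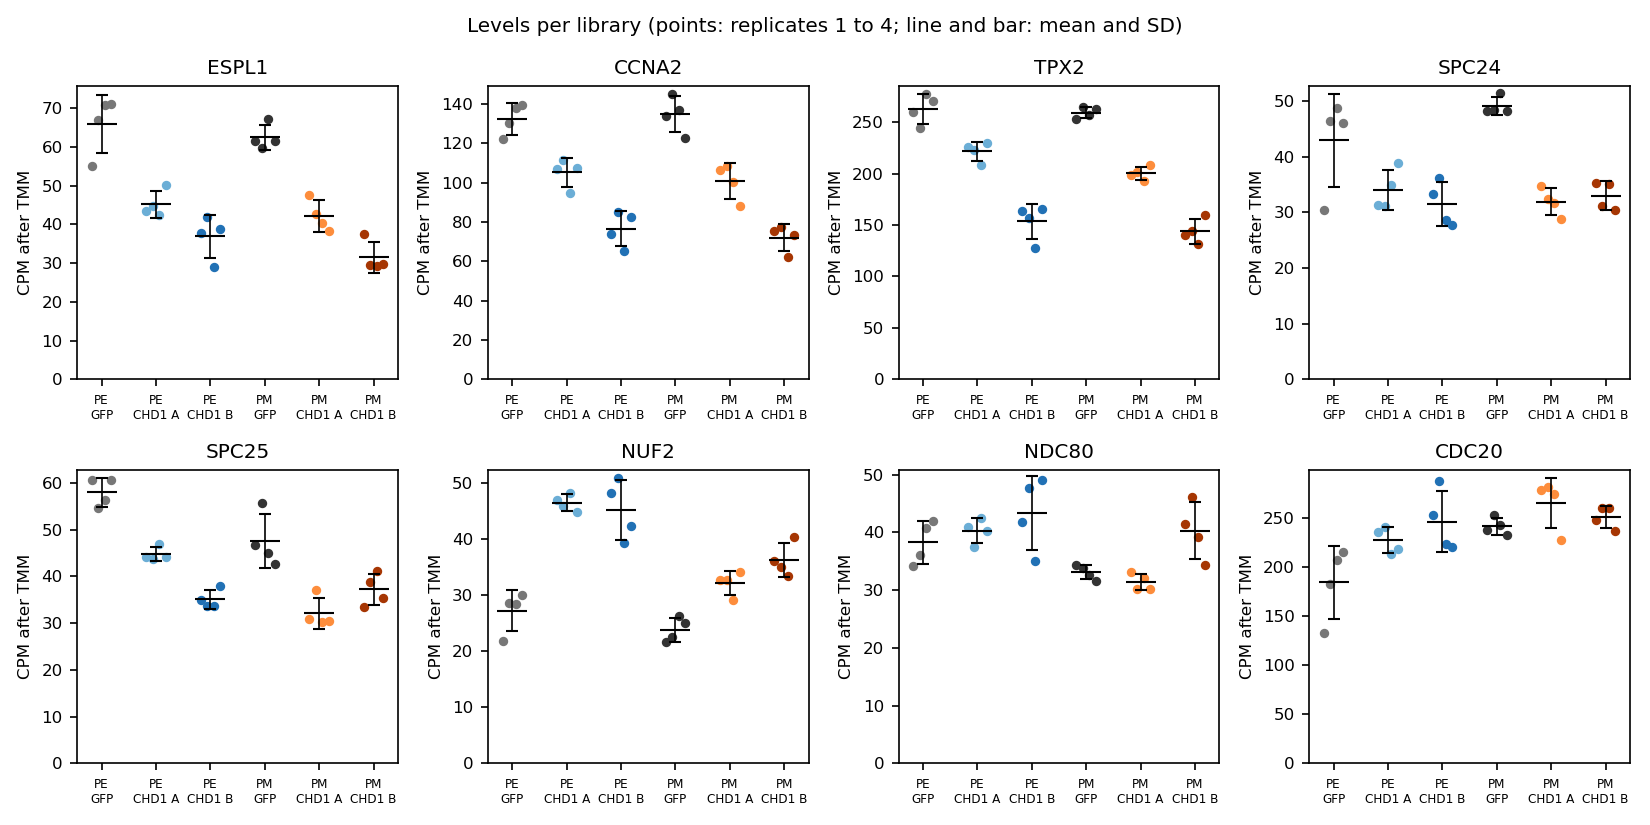
CPM after TMM scaling of 8 mitosis genes in every library (points), with mean and SD (line and bar), for PE and PM with the GFP hairpin or CHD1 hairpin A or B. ESPL1, CCNA2 and TPX2 step down from the GFP hairpin to A to B in each line, and within the NDC80 complex the means of SPC24 and SPC25 lie lower with CHD1 hairpins while those of NUF2 lie higher.

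Kinetochore genes. Of 7 genes, 5 fell and 1 rose in each line. CENPA, the histone of centromeric nucleosomes, fell by 0.35 in PE and by 0.49 in PM, CENPE, a kinetochore motor, fell by 0.33 and by 0.40, and CENPF fell by 0.34 and by 0.42. The 4 subunits of the NDC80 complex, the coupler of kinetochores to microtubules, went in different directions. SPC24 and SPC25, the pair that faces the chromosome, fell. NUF2 rose, and NDC80, its partner at the microtubule end, was not called in the mean of both hairpins.

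NUF2 was at 21.8, 28.6, 28.4 and 29.9 CPM with the GFP hairpin in PE, at 46.9, 45.8, 48.2 and 44.8 with hairpin A and at 48.2, 50.8, 39.2 and 42.2 with hairpin B. In PM it was at 21.6, 22.5, 26.2 and 24.9, at 32.6, 32.6, 29.1 and 34.1, and at 36.1, 34.9, 33.4 and 40.4. Every knockdown library lay above every control of its line. The log2 change was 0.72 (SE 0.08, edgeR adjusted p = 3.54e-08) in PE and 0.51 (SE 0.08, 5.66e-06) in PM, or 64.5% and 42.8% higher. The gene lies at chr1:163321954-163355759 (GRCh38), and the annotated exons of another gene, RGS5 on the opposite strand, cover 0.149% of its exon bases.

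SPC25 was at 60.7, 54.6, 56.3 and 60.7 CPM with the GFP hairpin in PE, at 44.3, 43.8, 46.9 and 44.3 with hairpin A and at 35.1, 33.8, 33.6 and 38 with hairpin B. In PM it was at 46.8, 55.8, 44.9 and 42.6, at 30.9, 37.1, 30.2 and 30.4, and at 33.5, 38.8, 41.1 and 35.5. The lowest control lay above the highest knockdown library in both lines. SPC25 changed by −0.55 (SE 0.07, edgeR adjusted p = 4.66e-07) in PE and by −0.46 in PM.

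SPC24 was at 30.5, 46.4, 48.8 and 46.1 CPM with the GFP hairpin in PE, at 31.3, 31.2, 34.9 and 38.9 with hairpin A and at 33.2, 36.2, 28.7 and 27.7 with hairpin B. In PM it was at 48.2, 48.3, 51.5 and 48.3, at 34.7, 32.4, 31.6 and 28.8, and at 35.4, 31.1, 35.1 and 30.4. Replicate 1 of the PE controls stood among the knockdown libraries, and no PM control did. SPC24 changed by −0.43 in PE and by −0.60 (SE 0.09, edgeR adjusted p = 1.42e-06) in PM.

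NDC80 was at 38.3 ± 3.70, 40.3 ± 2.15 and 43.4 ± 6.43 CPM in PE, for the GFP hairpin, A and B. In PM it was at 33.1 ± 1.25, 31.4 ± 1.40 and 40.3 ± 4.91. Its log2 change with hairpin B in PM was 0.28 (SE 0.09, edgeR adjusted p = 0.0203), and it did not pass in the other 3 comparisons of a single hairpin.

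Chromosome condensation. Of 4 genes, 1 fell and 1 rose in PE, and 3 fell in PM. NCAPH, of condensin I, fell by 0.33 and by 0.48. NCAPD2 and NCAPG, of the same complex, were at −0.06 and −0.21 in PE without passing, and fell by 0.23 and by 0.31 in PM. TOP2A, topoisomerase II alpha, which untangles sister chromatids, rose by 0.17 in PE (SE 0.06, edgeR adjusted p = 0.0224) and was at 0.0067 in PM. With single hairpins in PE it passed with B (0.26) and not with A (0.09).

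Spindle genes. Of 5 genes, 2 fell in PE and 4 in PM. ASPM, which focuses spindle poles, was at 218, 238, 250 and 239 CPM with the GFP hairpin in PE, at 187, 180, 186 and 197 with hairpin A and at 188, 220, 187 and 215 with hairpin B. In PM it was at 195, 191, 227 and 204, at 129, 120, 118 and 137, and at 146, 143, 121 and 138. With hairpin B in PE 1 knockdown library reached above the lowest control, whereas the PM groups were well apart. ASPM changed by −0.28 in PE and by −0.64 (SE 0.06, edgeR adjusted p = 2.55e-10) in PM.

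KIF2C, a kinesin that dismantles microtubules, fell by 0.23 in PE and by 0.44 in PM. KIF11, the motor that separates spindle poles, was at −0.14 in PE and fell by 0.28 in PM, and DLGAP5, a spindle stabiliser, was at −0.06 and fell by 0.24. KIF4A, a chromokinesin, was called in neither line in the mean of both hairpins. In PM it fell by 0.22 with hairpin A and was at 0.16 with hairpin B, which did not pass. All 5 spindle genes fell with hairpin A in PM, and 2 of them with hairpin B.

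Cytokinesis genes. Of 5 genes, 2 fell and 1 rose in PE, and 4 fell in PM. KIF23, a motor of the central spindle, fell by 0.24 in PE and by 0.36 in PM, and ECT2, the RhoA exchange factor that starts furrowing, fell by 0.33 and by 0.44. PRC1, which bundles the central spindle, was at −0.0027 in PE and fell by 0.19 in PM. The exons of another gene model on the same strand cover 57.6% of the PRC1 exon bases, so its value is uncertain. KIF20A, a central spindle kinesin, rose by 0.20 in PE and was at −0.06 in PM. With single hairpins in PE it passed with B (0.38) and not with A (0.03). ANLN, anillin of the cleavage furrow, was at 0.01 in PE and fell by 0.40 in PM.

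Differences between the lines. The difference of the knockdown effects, PM minus PE, was tested for the mean of both hairpins. Of the 47 genes 3 were lower, ANLN, ASPM and KIF20A, and none was higher, against 2.16% and 1.77% of all genes. Without the 3 libraries that stood apart 1 of the 47 was lower. The median difference was −0.11 for the 47 genes and −0.01 for all genes. For hairpin A alone 4 genes were lower (3.90% of all genes) and none was higher (2.76%), CDC25B joining those 3. For hairpin B alone 1 was lower, ASPM (0.980% of all genes), and none was higher (1.47%). That single call was lost with DESeq2 size factors, with library sizes alone, with limma-voom and with the compared groups alone. It was also lost without the 3 libraries that stood apart and on leaving out any of 9 single libraries in turn. The calls of these 3 comparisons use the same control libraries. Of the 8 genes called in PM and not in PE, the difference passed only for ANLN, so the others are not shown to differ between the lines.

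ANLN was at 229, 260, 342 and 291 CPM with the GFP hairpin in PE, at 274, 261, 292 and 298 with hairpin A and at 259, 303, 287 and 304 with hairpin B. In PM it was at 231, 221, 256 and 276, at 168, 164, 175 and 178, and at 196, 218, 191 and 204. The PE groups overlapped throughout, with a wide range among the controls, and in PM no knockdown library reached a control. The difference was −0.42 (SE 0.10, edgeR adjusted p = 0.0146), and 0.0520 without PE control replicate 2 or 0.0544 without the 3 libraries named above.

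ASPM, with the values given above, differed by −0.36 (SE 0.09, edgeR adjusted p = 0.0113) and passed under every alternative tried. KIF20A was at 197, 189, 235 and 219 CPM with the GFP hairpin in PE, at 213, 208, 216 and 224 with hairpin A and at 281, 284, 271 and 258 with hairpin B. In PM it was at 173, 154, 173 and 172, at 145, 139, 137 and 130, and at 185, 191, 194 and 183. In PM hairpin A lay below the controls and hairpin B above them. The difference was −0.27 (SE 0.08, edgeR adjusted p = 0.0409), and it was not past the threshold in 22 of 33 alternatives.

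With library sizes alone the share of higher differences among all called genes moved from 45.1% to 64.3% for the mean, from 41.5% to 56.5% for hairpin A and from 60.0% to 71.5% for hairpin B. The 47 genes then gave 2 lower for the mean, 3 lower for hairpin A, and 1 higher and none lower for hairpin B. For hairpin A, 7 genes were lower without PE control replicate 3 and 2 without PM control replicate 3.

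**Figure D4:**
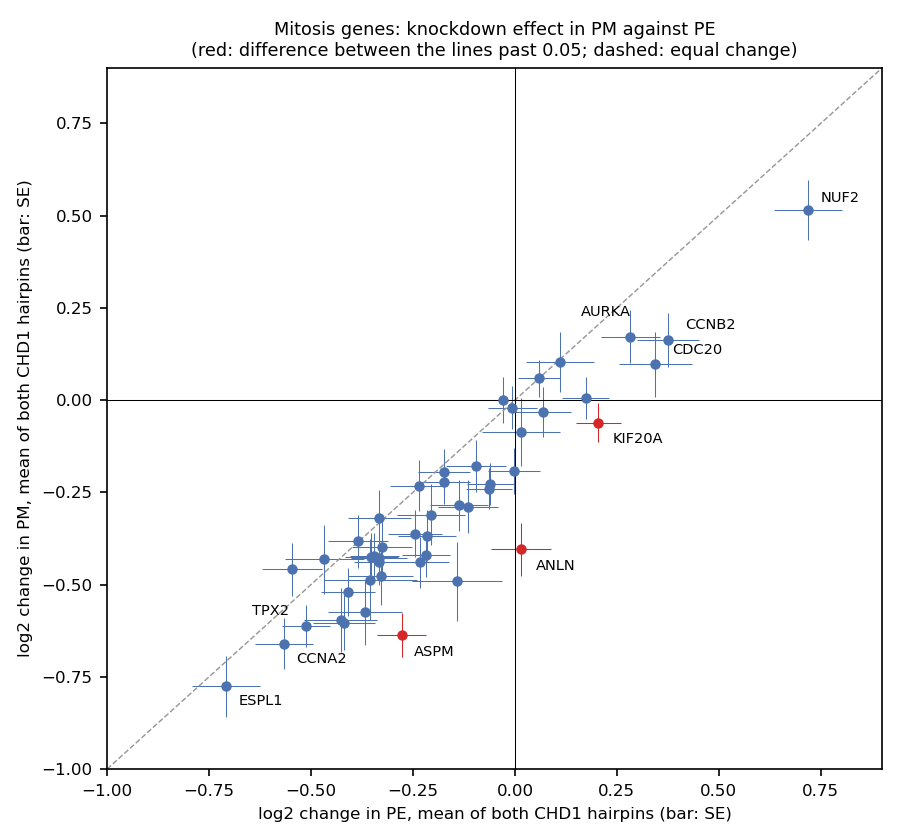
Log2 change of each of the 47 mitosis genes in PM against that in PE, each the mean of both CHD1 hairpins, with SE bars and a dashed line of equal change. ANLN, ASPM and KIF20A (red), whose difference between the lines passed the test, lie below the dashed line, and NUF2 lies farthest to the upper right.

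PM against PE with the GFP hairpin. This comparison asks how the lines differ before CHD1 is lost. Of the 47 genes 5 were higher and 6 lower in PM, against 14.1% and 11.4% of all genes, and the median log2 difference was −0.02. The libraries of PM lay wholly above those of PE for 7 genes and below for 3, against 14.8% and 10.1% of all genes. MYC itself was higher in PM by 0.91 (SE 0.06, edgeR adjusted p = 1.35e-13). CDC25B had the largest difference, −0.62 (SE 0.07, edgeR adjusted p = 1.37e-08), from 236 ± 3.93 CPM in PE to 154 ± 12.0 in PM.

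KIF4A was at 57.9, 54.9, 64.6 and 67.6 CPM in PE and at 44.9, 50.5, 49.2 and 48.0 in PM, without overlap (−0.35, SE 0.08, edgeR adjusted p = 0.000753). KIF20A, SPC25, ASPM and TOP2A were lower in PM as well, by −0.33, −0.29, −0.21 and −0.18. MAD2L1 was at 69.2, 70.7, 68.8 and 78.5 CPM in PE and at 87.0, 94.2, 94.7 and 93.2 in PM, without overlap (0.36, SE 0.07, edgeR adjusted p = 0.000269). CDC20, with the values given above, was higher by 0.38 (SE 0.10, edgeR adjusted p = 0.00677), and PLK4, CDCA5 and AURKB were higher by 0.35, 0.33 and 0.29. By contrast, 23 of 44 genes of DNA replication were higher in PM and none was lower, with a median of 0.31. DESeq2 size factors or library sizes alone gave 5 higher and 10 lower of the 47 genes. There were 3 higher and 10 lower without PE control replicate 1, 6 and 4 without its replicate 3 or 4, 3 and 6 without replicate 2 of PM and 5 and 9 without replicate 3 of PM.

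Hairpin B against hairpin A. In PE, 2 of the 47 genes were higher with B and 5 lower, against 7.48% and 9.09% of all genes. In PM 12 were higher and 4 lower, against 12.7% and 13.5%, and 14 and 4 without the 3 libraries that stood apart. TPX2 differed by −0.53 (SE 0.07, edgeR adjusted p = 4.6e-07) in PE and by −0.48 (SE 0.07, 1.52e-06) in PM. CCNA2 differed by −0.46 (SE 0.08, edgeR adjusted p = 8.66e-05) in PE and by −0.48 (SE 0.08, 2.31e-05) in PM, and ESPL1 by −0.30 and −0.42. These 3 genes fell with both hairpins, and further with hairpin B, in both lines. CHD1 itself stood at 29.2 and 28.1 CPM with A and B in PE, and at 31 and 29.5 CPM in PM. MYC was lower with B than with A in PM, by −0.52 (edgeR adjusted p = 3.75e-08). In PE that difference was 0.09 and did not pass (adjusted p = 0.359). Against the GFP hairpin in PM, MYC changed by −0.40 with B (edgeR adjusted p = 3.58e-06). With A it was at 0.12, which did not pass (adjusted p = 0.142). The part of MYC in the hairpin differences was not tested.

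KIF20A went the other way, higher with B by 0.35 (SE 0.06, edgeR adjusted p = 9.42e-05) in PE and by 0.45 (SE 0.06, 8.78e-07) in PM, and so did NCAPD2, by 0.26 in both. CDC25B was lower with B by −0.32 in PE and higher by 0.39 in PM. SPC25 was lower with B in PE by −0.35 (SE 0.08, edgeR adjusted p = 0.00301), and CDC25C was higher with B in PM by 0.56 (SE 0.13, 0.000885). The other genes higher with B in PM were KIF4A, NDC80, PTTG1, ANLN, TOP2A, KIF11, DLGAP5 and ECT2, from 0.38 down to 0.19, and AURKA was lower by −0.27. In PE, library sizes alone gave 4 higher and 4 lower, as did leaving out replicate 3 of hairpin B. The share of higher among all called genes then moved from 45.1% to 56.4% in PE and from 48.5% to 58.6% in PM, where the 47 genes gave 14 higher and 4 lower.

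**Figure D5:**
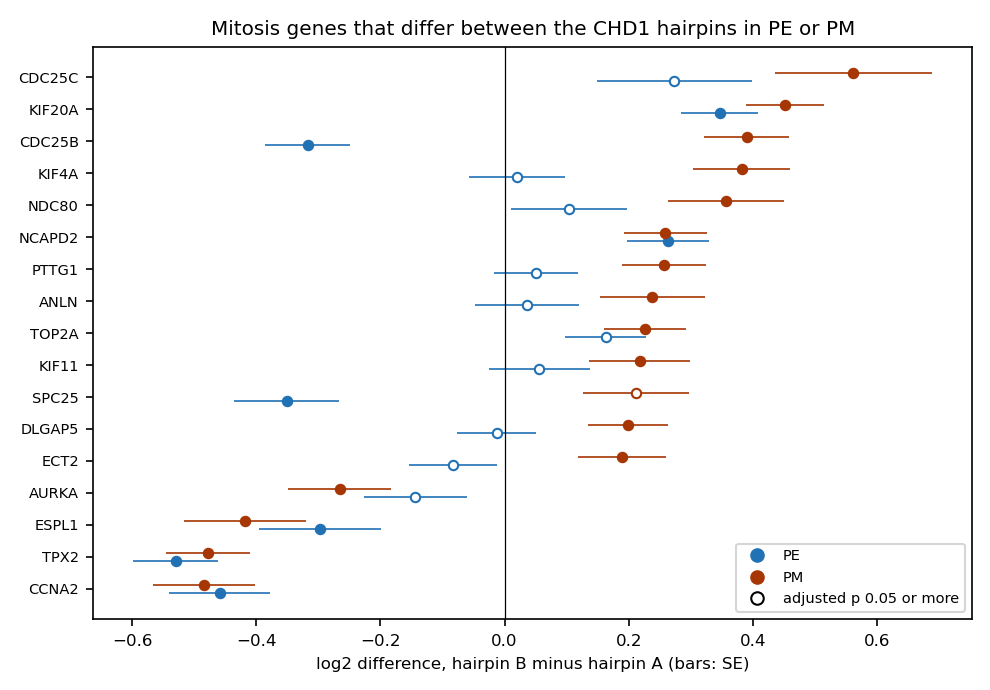
Log2 difference between hairpin B and hairpin A in PE (blue) and PM (brown) for the 17 mitosis genes that passed the edgeR test in either line, with SE bars; open symbols did not pass. CCNA2, TPX2 and ESPL1 lie left of 0 and KIF20A and NCAPD2 right of 0 in both lines, and CDC25B lies on opposite sides.

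Promoter elements and response. Among the 29 genes with TTTGAA or TTCGAA in the promoter, 13 fell and 4 rose in PE and 20 fell and 1 rose in PM, with medians of −0.14 and −0.28. Among the 11 matched genes without it, 8 fell and 1 rose in PE and 9 fell in PM, with medians of −0.23 and −0.42. Of the sequences printed above, ESPL1 and CCNB2 have TTTGAA at 31 and 29 bases before the start, with CCAAT upstream, and in PE the former fell and the latter rose. CCNA2, which fell in both lines, and KIF20A, which rose in PE, both lack TTTGAA and TTCGAA. The CCNA2 stretch does hold cttgaa, which differs from TTTGAA in its first base and was not counted. Only these spellings were searched, in 1 promoter per gene. Genes without a match may therefore hold another form of the element or use another start, which limits the comparison of the groups. A match of letters does not show binding, and none was measured here.

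Other genes of the pathway. Of 100 further genes of mitosis, 55 fell and 5 rose in PE and 69 fell and 4 rose in PM, with medians of −0.26 and −0.36. Of all genes tested, 12.7% fell and 13.1% rose in PE, and 15.1% fell and 13.3% rose in PM. The largest changes in PE were falls of CENPK (−0.91), SASS6 (−0.85), CENPH (−0.77) and KNL1 (−0.76). CENPK and CENPH belong to the inner kinetochore, SASS6 builds the centriole cartwheel, and KNL1 is the kinetochore platform of the checkpoint. In PM they were falls of PIMREG (−1.16), the kinase gene MELK (−0.97), KNL1 (−0.79) and WEE1 (−0.76), whose kinase holds CDK1 inactive. MKI67, the proliferation marker Ki-67, fell by 0.28 (edgeR adjusted p = 0.0013) in PE and by 0.37 (3.33e-05) in PM.

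Of 23 regulators of these genes, 6 fell and 3 rose in PE and 11 fell and 4 rose in PM. Over all genes tested, 12.7% fell and 13.1% rose in PE, and 15.1% fell and 13.3% rose in PM. CDKN1A, which encodes the CDK inhibitor p21, was at 174 ± 17.5 CPM in the PE controls, at 279 ± 27.9 with hairpin A and at 462 ± 87.6 with hairpin B. In PM it was at 148 ± 16.5, 475 ± 43.8 and 517 ± 123 CPM. It rose by 1.04 in PE and by 1.75 in PM on the log2 scale, and the difference between the lines was 0.71 (edgeR adjusted p = 0.045). MYBL2, which encodes B-MYB, was at 0.04 in PE (adjusted p = 0.783) and fell by 0.23 in PM (adjusted p = 0.018).

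Genes of the E2F family moved in both directions. E2F8 fell by 0.75 in PE and by 0.87 in PM, and E2F5, a partner of the DREAM complex, rose by 0.82 and by 0.75. E2F2 fell by 0.72 and by 0.45, and LIN52, a subunit shared by DREAM and MuvB, fell by 0.53 and by 0.69. Genes of DNA replication, which are transcribed earlier in the cycle, fell in 35 of 44 cases in PE and in 37 of 44 in PM. There was 1 rise in each, with medians of −0.45 and −0.44. The shares of all genes are those given above.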

How the data were processed

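Poly(A) RNA of 24 libraries was analysed from the count table deposited by the authors, which holds whole-number read counts per gene without scaling. Per the submitters' processing notes, reads were checked with FastQC, trimmed with Trim Galore 0.4.0, aligned to GRCh38 with HISAT2 2.2.1 and counted with featureCounts. Which annotation was used, whether strand was used and how multi-mapping reads were counted is not given in the sources used here. In GENCODE v29, 18 of the 47 genes have exons that overlap those of another gene, 5 of them over more than 10% of their length (BUB1B, FOXM1, NCAPG, PLK1 and PRC1), so these values are less certain. Genes without a count (17236) and those below edgeR's filterByExpr were left out, which left 20820. All 24 libraries entered 1 fit in edgeR 4.0.16 under R 4.3.3, with a mean for each group, TMM scaling, the robust quasi-likelihood method and 18 residual degrees of freedom. Tests were two-sided, with Benjamini-Hochberg adjustment over all genes of a comparison and a threshold of 0.05. CPM values use TMM library sizes, and the log2 deviations use a prior count of 1. An SE is approximate, from the log2 change and the F statistic. Levels per kilobase use the exon union of GENCODE v29. No list was tested as a set. The 47 genes and the other lists were chosen with earlier results of these data known. Values of every library are given for up to 6 genes with the largest called changes in each line's mean effect and up to 4 in each other comparison. The procedure was tested on simulated data. The alternatives were DESeq2 1.42.0 (size factors and Wald test), limma-voom (limma 3.58.1), library sizes alone, no filter, a minimum of 5 CPM in 4 libraries, a replicate block, the compared groups alone, leaving out the 3 libraries that stood apart, and leaving out each library in turn.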

Additional observations from a re-analysis of the deposited data

Results flagged for a closer look

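Of 96 groups of 4 libraries examined for the genes given per library, 7 held a library far from the other 3 by Dixon's criterion at the 95% level, where chance gives about 1 in 20. They were CDC20 at 228 CPM in replicate 4 of hairpin A in PM, ESPL1 at 37.4 CPM in replicate 1 of hairpin B in PM, and KIF20A at 154 CPM in PM control replicate 2. SPC24 stood apart at 30.5 CPM in PE control replicate 1 and at 51.5 CPM in PM control replicate 3. SPC25 did so at 46.9 CPM in replicate 3 of hairpin A in PE and at 37.1 CPM in replicate 2 of hairpin A in PM.

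The knockdown effect differed between PM and PE by the edgeR test of the difference for ANLN (−0.42), ASPM (−0.36) and KIF20A (−0.27) in the mean of both hairpins. With hairpin A it differed for CDC25B (−0.56), ANLN (−0.52), ASPM (−0.36) and KIF20A (−0.32), and with hairpin B for ASPM (−0.35), all on the log2 scale and lower in PM.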

How the results depend on the processing

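Apart from leaving out single libraries, 100 of 108 counts of called genes stayed within 1.5 times their value. These counts join both directions. For the difference between the lines with hairpin B, the count of 1 became 0 with DESeq2 size factors, with limma-voom, with the compared groups alone and without the 3 libraries that stood apart. It became 2 with no filter, with at least 5 CPM in 4 libraries and with the replicate number as a block. With library sizes alone it stayed at 1, but that gene was higher and none was lower. For the mean of both hairpins this difference went from 3 genes to 1 without the 3 libraries. The cause was not tested. Leaving out each library in turn gave 18 to 28 called genes for hairpin A and 23 to 31 for hairpin B in PE, and 25 to 33 for their mean. In PM it gave 32 to 36, 28 to 33 and 35 to 36. It gave 9 to 14 for PM against PE, 6 to 8 and 13 to 15 for hairpin B against A in PE and PM, and 1 to 3, 2 to 7 and 0 to 2 for the difference between the lines in the mean, hairpin A and hairpin B in turn. The 1 was reached without PE control replicate 2, and the 0 without any of 9 libraries in turn. Of 27 values given for single genes, 25 kept their direction and side of the threshold under all alternatives run, and KIF20A and ANLN in the difference between the lines did not. No direction of a called value reversed.

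Libraries with the same replicate number deviated together in part: over 60 pairs the correlation ran from 0.03 to 0.46, with 55 over 0.1. The median was 0.26, against −0.11 for pairs of other numbers. On average, 22 of 24 libraries correlated best with those of their own number. The sample numbers in the library names also run in blocks by replicate number, though what a block stands for is not given. The main fit did not use the replicate number. With the replicate number as a block, called genes numbered 25, 33 and 33 in PE for A, B and their mean, 37, 35 and 37 in PM, 13 for PM against PE, 9 and 18 for hairpin B against A, and 3, 5 and 2 for the difference between the lines. Depth limits PE control replicate 1 most, at 4.14 M counts, and counts per gene do not resolve isoforms.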
